A study of Mus musculus with 3 samples.

Results

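Keratin genes were taken as all protein-coding genes whose symbol is Krt followed by a number, and 53 of the 21631 protein-coding genes on chromosomes 1 to 19 and X met this rule. Of these, 27 lay in the type I cluster on chromosome 11 and 26 in the type II cluster on chromosome 15, with 0 elsewhere. For each gene, the accessible regions (peaks) over the gene span plus 5 kb on each side, called its window here, were read from 3 lists in mm10 coordinates. The rule uses only the gene symbol.

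The lists come from 1 library each of sciATACv3, sciATACv2 and sciATACv1, shortened to v3, v2 and v1, which are versions of a nanowell preparation of single-cell combinatorial indexed ATAC-seq on whole brain of C57BL6 mice. In this assay the transposase Tn5 cuts and tags open chromatin of barcoded nuclei. The sources used here do not state what differs between the versions, nor the age, sex and number of animals or the number of nuclei. Each version has 1 library, so no difference between versions has a replicate check, no p-value is given, and version and library cannot be told apart.

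Keratins are the intermediate filament proteins of epithelial cells, hair and nails. An acidic type I keratin pairs with a basic type II keratin to build the filament, and each epithelium uses its own pairs. Neurons and glia instead rely on related filament proteins such as the neurofilaments, vimentin and glial fibrillary acidic protein. The keratin genes sit side by side in the genome, one cluster per type, except that Krt18, a type I gene by its protein, lies at the edge of the type II cluster.

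The gene starts carry the main pattern in these lists, so 7 of them are printed here. RefSeq's promoter table for GRCm38.p6, the assembly called mm10, gives 250 bases before to 50 after the start, and 36 of the 53 genes had an entry. Krt12, Krt32, Krt9 and Krt77 are shown because these were the 4 keratin genes with a peak over the start in all 3 lists. Krt12 encodes the keratin of the cornea, Krt32 a keratin of the hair cuticle, Krt9 the keratin of palm and sole epidermis, and Krt77 a suprabasal epidermal keratin. All of them read from the minus strand, and capitals mark TATAAA, the core of the TATA box, on the strand of the gene. The windows lie at chr11:99422210-99422509 for Krt12, chr11:100088220-100088519 for Krt32, chr11:100193197-100193496 for Krt9 and chr15:101869656-101869955 for Krt77.
Krt12: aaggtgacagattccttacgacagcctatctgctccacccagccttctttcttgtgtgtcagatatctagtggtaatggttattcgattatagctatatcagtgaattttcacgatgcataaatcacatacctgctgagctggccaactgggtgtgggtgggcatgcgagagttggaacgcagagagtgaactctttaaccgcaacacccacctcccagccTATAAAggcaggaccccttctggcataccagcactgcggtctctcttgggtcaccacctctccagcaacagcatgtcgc
Krt32: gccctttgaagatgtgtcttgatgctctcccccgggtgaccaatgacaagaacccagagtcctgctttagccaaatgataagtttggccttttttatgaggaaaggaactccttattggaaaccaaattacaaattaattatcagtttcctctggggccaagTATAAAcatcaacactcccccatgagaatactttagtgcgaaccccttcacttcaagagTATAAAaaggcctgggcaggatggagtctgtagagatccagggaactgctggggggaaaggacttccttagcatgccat
Krt9: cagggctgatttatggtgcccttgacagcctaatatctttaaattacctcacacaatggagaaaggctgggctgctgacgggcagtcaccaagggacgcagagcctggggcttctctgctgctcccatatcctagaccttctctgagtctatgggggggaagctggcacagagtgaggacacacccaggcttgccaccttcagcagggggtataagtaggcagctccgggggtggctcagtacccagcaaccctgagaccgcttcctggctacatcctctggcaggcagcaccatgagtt
Krt77: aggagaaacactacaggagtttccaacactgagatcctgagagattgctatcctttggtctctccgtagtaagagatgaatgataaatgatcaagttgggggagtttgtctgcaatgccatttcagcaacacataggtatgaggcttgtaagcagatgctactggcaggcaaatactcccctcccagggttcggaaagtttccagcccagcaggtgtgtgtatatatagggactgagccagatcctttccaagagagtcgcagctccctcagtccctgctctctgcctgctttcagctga

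Krt18, Krt8 and Krt5 are shown beside them for contrast. Krt8 and Krt18 encode the partner keratins of simple epithelia, and Krt5 is the type II keratin of the basal layer of stratified epithelia. A peak lay over the Krt18 start in v3 and v2 only, and none lay over the starts of Krt8 and Krt5 in any list. Krt18 reads from the plus strand at chr15:102027966-102028265. Krt8 at chr15:102004293-102004592 and Krt5 at chr15:101712856-101713155 read from the minus strand, and capitals again mark TATAAA.
Krt18: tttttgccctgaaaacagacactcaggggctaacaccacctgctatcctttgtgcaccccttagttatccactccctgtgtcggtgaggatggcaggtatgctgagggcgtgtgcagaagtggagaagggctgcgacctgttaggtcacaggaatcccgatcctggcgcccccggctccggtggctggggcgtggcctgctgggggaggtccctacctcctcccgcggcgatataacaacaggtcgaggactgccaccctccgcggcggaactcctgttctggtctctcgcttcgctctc
Krt8: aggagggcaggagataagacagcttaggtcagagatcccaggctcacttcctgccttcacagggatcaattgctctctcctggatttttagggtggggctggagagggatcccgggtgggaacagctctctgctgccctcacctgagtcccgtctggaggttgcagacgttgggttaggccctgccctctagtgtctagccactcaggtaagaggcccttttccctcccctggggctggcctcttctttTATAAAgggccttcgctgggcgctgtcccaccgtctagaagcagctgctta
Krt5: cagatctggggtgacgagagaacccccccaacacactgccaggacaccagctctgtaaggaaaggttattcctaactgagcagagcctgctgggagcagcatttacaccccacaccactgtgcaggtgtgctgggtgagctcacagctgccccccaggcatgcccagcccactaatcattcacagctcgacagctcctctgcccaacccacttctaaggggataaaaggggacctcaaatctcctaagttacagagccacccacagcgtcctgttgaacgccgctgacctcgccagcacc

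The 3 lists held 512023 peaks in v3, 850991 in v2 and 622754 in v1, and their narrowest and most frequent width was 500 bp. A peak list holds no read counts, so the depth behind a peak is unknown. A region open in few cells and a region weakly open in many cannot be told apart in such lists. Beside the labelled tissue, 12 brain cell genes were read, and each had a peak no farther than 1 kb from one end of its span in all lists. Of all protein-coding genes, 80.6% had such a peak in v3, 84.8% in v2 and 81.0% in v1, so this count alone does not check the tissue. The median covered share of the window of these 12 genes was 44.3% in v3, 46.9% in v2 and 36.7% in v1. By their mean over the lists they ran from Pdgfra, a marker of oligodendrocyte precursors, at 24.6% in v3, 19.2% in v2 and 23.8% in v1, up to Syt1, a synaptic vesicle calcium sensor, at 63.9%, 61.7% and 52% in the same order.

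Keratin genes had less of their windows covered by peaks than most protein-coding genes of the same lists. The median keratin gene had 15.9% of its window covered in v3, 18.4% in v2 and 8.21% in v1, against 27.8% in v3, 35.8% in v2 and 23.5% in v1 over all protein-coding genes. Below those all-gene medians lay 47 of the 53 keratin genes in v3, 44 in v2 and 47 in v1. The lowest 25% of all genes held 19 keratin genes in v3, 26 in v2 and 32 in v1. The median keratin gene stood at percentile 30.0 in v3, 25.2 in v2 and 22.1 in v1. By number of peaks, the medians were 3 per keratin window in v3, 5 in v2 and 2 in v1, against 7, 11 and 8 per window of all genes. The windows of all genes were longer, with a median of 27329 bp, so these numbers are not on 1 scale. Genes of like window length lay above the keratin genes too: keratin windows had a median of 17070 bp, and 2518 other genes with windows between the keratin quartiles of 15117 and 19482 bp had medians of 27.9% covered in v3, 34.2% in v2 and 23.4% in v1. Their median peak numbers were 4 in v3, 7 in v2 and 5 in v1, nearer to those of the keratin genes.

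The low coverage was also seen against other genes in and next to the clusters. Neighbours were the 85 protein-coding genes inside or within 500 kb of either cluster without a keratin or keratin-associated protein (Krtap) symbol. Of these, 15 lay inside the type I cluster and 1 inside the type II cluster. Those inside lay under the median keratin gene, except Gm11937 in each list and Gm11568 in v2 and v1. Gm11937 had 36.5% covered in v3, 35.7% in v2 and 19.9% in v1, and Gm11568 had 13.0%, 21.7% and 14.5%. The neighbour values that follow pool genes inside and outside the clusters. Genes were sorted by symbol alone, so a keratin-associated protein gene under another name would count as a neighbour. The 85 genes had median coverage of 34.8% in v3, 42.0% in v2 and 30.8% in v1. All genes of chromosome 11 had medians of 30.5% in v3, 38.7% in v2 and 25.7% in v1, and those of chromosome 15 had 31.3%, 40.7% and 28.1%. Over the union of the keratin windows, 864082 bp, peaks covered 16.5% of bases in v3, 21.6% in v2 and 11.1% in v1. Over the neighbouring genes' windows they covered 35.3% in v3, 42.3% in v2 and 31.5% in v1. Peak density was likewise lower: 18.3 peaks per 100 kb of keratin windows in v3, 29.0 in v2 and 16.1 in v1, against 32.8, 46.9 and 39.9 in the neighbours.

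**Figure D1:**
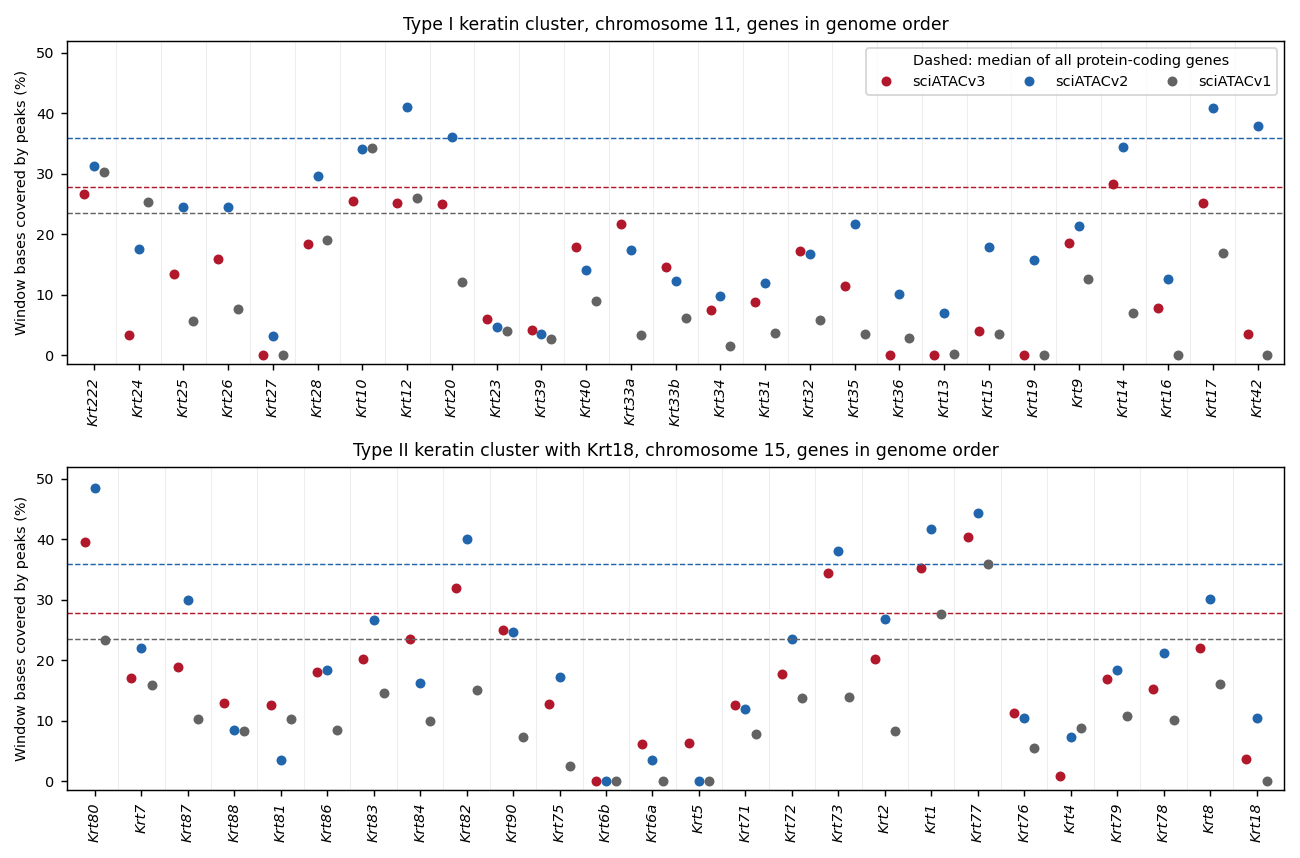
Percent of window bases covered by peaks (y axis) for each keratin gene in genome order (x axis), with the type I cluster above and the type II cluster below; points are the single libraries v3, v2 and v1, and dashed lines are the medians of all protein-coding genes, 27.8% in v3, 35.8% in v2 and 23.5% in v1. Most points lie under the line of their own library, Krt1 and Krt77 lie above it in all 3, and Krt6b is at 0 in all 3.

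The clusters differed little in level. Type I genes on chromosome 11 had median coverage of 13.4% in v3, 17.6% in v2 and 5.74% in v1, and type II genes with Krt18 on chromosome 15 had 17.4% in v3, 19.8% in v2 and 9.97% in v1. The difference between the clusters was smaller than the spread among genes within either one, whose members ran from 0 to 28.4% in v3 and from 0 to 34.2% in v1 on chromosome 11, and from 0 to 40.4% in v3 and from 0 to 35.8% in v1 on chromosome 15. The 53 genes shared neighbours' peaks, since adjacent windows overlap: their counts summed to 189 in v3, 292 in v2 and 160 in v1, against 158, 251 and 139 distinct peaks. Genes within a cluster are therefore not independent of each other.

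By median, suprabasal epidermal keratins were the most covered group of the family. These are Krt1, Krt2, Krt9, Krt10 and Krt77, which epidermal cells switch on as they leave the basal layer. Their median coverage was 25.4% in v3, 34.1% in v2 and 27.6% in v1, and 3 of the 5 lay under the all-gene median in v3, 3 in v2 and 2 in v1. Krt77, at chr15:101858731-101869706, had 8 peaks and 40.4% of its window covered in v3, 12 peaks and 44.4% in v2, and 11 peaks and 35.8% in v1. It stood at percentile 78.3 of all genes in v3, 70.3 in v2 and 79.9 in v1. Krt1, the type II keratin of the spinous layer, had 35.2% covered in v3, 41.7% in v2 and 27.6% in v1. Krt10, the type I partner of Krt1, had 5 peaks and 25.4% in v3, 8 peaks and 34.1% in v2, and 10 peaks and 34.2% in v1. Coverage of Krt1 and Krt77 was thus above the all-gene median in each list, while Krt10 was above it in v1 only. The windows of Krt1 and Krt77 overlap and share peaks, so their values are not independent. Krt9 had 18.6% covered in v3, 21.3% in v2 and 12.5% in v1, and Krt2, the keratin of the granular layer, had 20.2%, 26.8% and 8.21%.

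Basal and activated keratins were among the less covered groups. The basal layer genes Krt5, Krt14 and Krt15 had median coverage of 6.31% in v3, 18.0% in v2 and 3.52% in v1. Krt14, the type I partner of Krt5, had 4 peaks and 28.4% of its window covered in v3, 8 peaks and 34.4% in v2, and 2 peaks and 6.97% in v1. Krt5 had 2 peaks and 6.31% in v3, and 0 peaks in v2 and v1, so the partner genes of the basal layer differed within each list. Krt15, which also marks hair follicle stem cells, had 4.07% in v3, 18.0% in v2 and 3.52% in v1. The appendage and activated group, Krt6a, Krt6b, Krt16, Krt17, Krt42 and Krt75, is known for nails, hair follicles and wounded skin. It had median coverage of 6.95% in v3, 14.9% in v2 and 0 in v1, with no peak in the window of 1 of 6 genes in v3, 1 in v2 and 4 in v1. Krt17 was its most covered gene, with 25.2% in v3, 40.8% in v2 and 16.9% in v1. Krt6b was the only keratin gene without a peak in all 3 lists. Krt6a and Krt6b are near-identical copies, and reads shared by such copies may be lost to alignment, with settings that the sources used here do not state; the part of this in their values was not tested.

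Keratins of the hair follicle made up the largest groups. The 15 hair shaft keratins had median coverage of 17.3% in v3, 16.2% in v2 and 6.16% in v1, and 14, 14 and 15 of them lay under the all-gene median in these lists. Krt82, a hair cuticle keratin, was the most covered, with 7 peaks and 31.8% in v3, 10 peaks and 40.0% in v2, and 6 peaks and 15% in v1. Krt83 had 20.1% in v3, 26.6% in v2 and 14.6% in v1. Krt39 was among the least covered, with 4.13% in v3, 3.56% in v2 and 2.72% in v1. The 7 inner root sheath keratins, which form the sleeve that moulds the growing hair, had medians of 15.9% in v3, 24.4% in v2 and 7.73% in v1. By their mean over the lists, Krt73 came first with 34.4% in v3, 38.1% in v2 and 13.9% in v1, and Krt28 next with 18.3%, 29.6% and 19%. Krt27 had 0 peaks in v3, 1 in v2 and 0 in v1. Within the inner root sheath group, Krt73 was above the all-gene median in v3 and v2 and below it in v1.

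Simple epithelium keratins, the group that single-layered linings use, also lay low. Krt7, Krt8, Krt18, Krt19, Krt20 and Krt23 had median coverage of 11.5% in v3, 18.9% in v2 and 8.02% in v1. Krt8 had 5 peaks and 22% of its window covered in v3, 4 peaks and 30.0% in v2, and 4 peaks and 16.1% in v1. Its partner Krt18 had 1 peak and 3.62% in v3, 2 peaks and 10.5% in v2, and 0 peaks in v1. Coverage of Krt18 was thus lower than that of Krt8 in each list. Krt20, an intestinal keratin, had 25% covered in v3, 36.1% in v2 and 12.1% in v1. Krt7, found in ducts and glands, had 17.1%, 22% and 15.9%. Krt19 had 0 peaks in v3, 4 in v2 and 0 in v1.

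Mucosa and cornea keratins, Krt4, Krt12, Krt13 and Krt76, had median coverage of 6.01% in v3, 8.85% in v2 and 7.06% in v1. Krt12 stood apart within this group, with 25.1% in v3, 41.1% in v2 and 26% in v1. Krt4 and Krt13, partner keratins of the lining of mouth and oesophagus, had 0.778% and 0 in v3, 7.23% and 7.02% in v2, and 8.73% and 0.204% in v1. Krt76, a palate keratin, had 11.2%, 10.5% and 5.39%. The 7 keratins outside these groups, Krt222, Krt24, Krt78, Krt79, Krt80, Krt88 and Krt90, had medians of 16.8% in v3, 21.2% in v2 and 10.7% in v1. Krt80 had the most peaks of any keratin gene in v3 and v2, with 12 peaks and 39.5% covered in v3, 19 peaks and 48.5% in v2, and 10 peaks and 23.4% in v1. Krt222 had 26.7% in v3, 31.3% in v2 and 30.4% in v1.

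**Figure D2:**
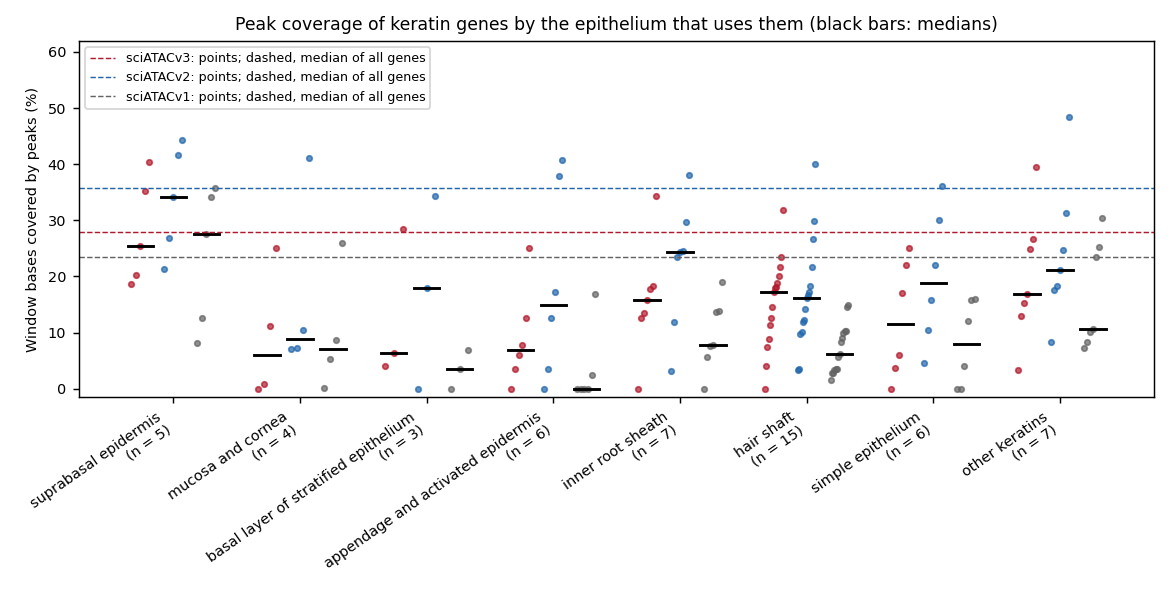
Percent of window bases covered (y axis) for the keratin genes grouped by the epithelium that uses them (x axis), with v3, v2 and v1 from left to right in each group; points are genes, black bars are group medians and dashed lines are all-gene medians. The suprabasal group has the highest median in each list, 25.4% in v3, 34.1% in v2 and 27.6% in v1, and the appendage and activated group has a median of 0 in v1.

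Keratin windows with no peak at all were few, and set against all genes they had no common direction. There were 5 of 53 in v3 (12.8% of all protein-coding genes), 2 in v2 (9.81% of all genes) and 8 in v1 (11.2% of all genes). In v3 these were Krt13, Krt19, Krt27, Krt36 and Krt6b. In v2 they were Krt5 and Krt6b. In v1 they were Krt16, Krt18, Krt19, Krt27, Krt42, Krt5, Krt6a and Krt6b. Most keratin windows held some peak, and the low medians came with partly covered windows.

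Peaks at the gene start were rarer at keratin genes than at other genes in each list. A peak overlapped the start window of 6 of 36 keratin genes in v3, or 16.7% (95% exact Clopper-Pearson interval 6.37 to 32.8%), where 72.5% of the 17274 protein-coding genes in the promoter table had one. In v2 the count was 18 of 36, with an interval of 32.9 to 67.1%, beside 77.6% of all genes in the table. In v1 it was 7 of 36, or 19.4% (8.19 to 36%), beside 72.3%. With only peaks wider than 500 bp the keratin counts were 5 in v3, 8 in v2 and 5 in v1, so the higher count of v2 rested mostly on peaks of the minimum width. The whole interval lay below the share of all genes in each list, and 17 of the 36 had no start peak in any list. For the counts of wider peaks and of starts without a peak in any list, the share of all genes was not taken. Intervals cover counting error only, and neighbouring genes can share a peak.

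The peaks over keratin starts differed between lists in which genes they covered. In v3 they lay over Krt12, Krt18, Krt32, Krt73, Krt77 and Krt9. In v1 they lay over Krt10, Krt12, Krt24, Krt32, Krt71, Krt77 and Krt9. In v2 they covered the starts of Krt2, Krt7, Krt20, Krt25, Krt26, Krt31, Krt72, Krt75, Krt78 and Krt79 as well as those of Krt9, Krt10, Krt12, Krt18, Krt24, Krt32, Krt73 and Krt77. Of the sequences printed above, the Krt9 window was covered over all 300 bases in each list. The Krt77 window was covered over 300 bases in v3, 249 in v2 and 253 in v1. The Krt12 window was covered over 32 bases in v3, 300 in v2 and 45 in v1, and the Krt32 window over 300, 187 and 3 bases. Krt9 and Krt77 thus had most of the start window inside a peak in each list, while Krt12 in v3 and v1 and Krt32 in v1 were touched at the edge. The Krt18 window was covered over 251 bases in v3, 248 in v2 and 0 in v1.

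Starts without a peak differed in how far away the nearest one lay. For Krt8 the nearest peak lay 748 bp downstream of the start in v3, 353 bp upstream in v2 and 736 bp downstream in v1. For Krt5 it lay 2881 bp upstream in v3, 14856 bp downstream in v2 and 24853 bp upstream in v1. Counting those with a peak over the start, 12 of the 36 genes had a peak within 1 kb of the listed start in v3, 22 in v2 and 10 in v1. The share of all genes was not taken for this wider reach, so the counts are not read as low or high. The table's start is not always the outer end of the gene: for 6 of the 36, Krt10, Krt12, Krt14, Krt2, Krt36 and Krt78, every listed start lies more than 100 bp inside the span. Taking both ends of the span for all 53 genes, 39 had a peak at most 1 kb from either end in v3 (80.6% of all protein-coding genes did), 43 in v2 (84.8%) and 28 in v1 (81.0%). As shares, these are 73.6% of keratin genes in v3, 81.1% in v2 and 52.8% in v1, so the gap was small in v3 and v2 and wide in v1. Among the 17 keratin genes without a listed start, 13 had a peak near an end in v3, 13 in v2 and 11 in v1.

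**Figure D3:**
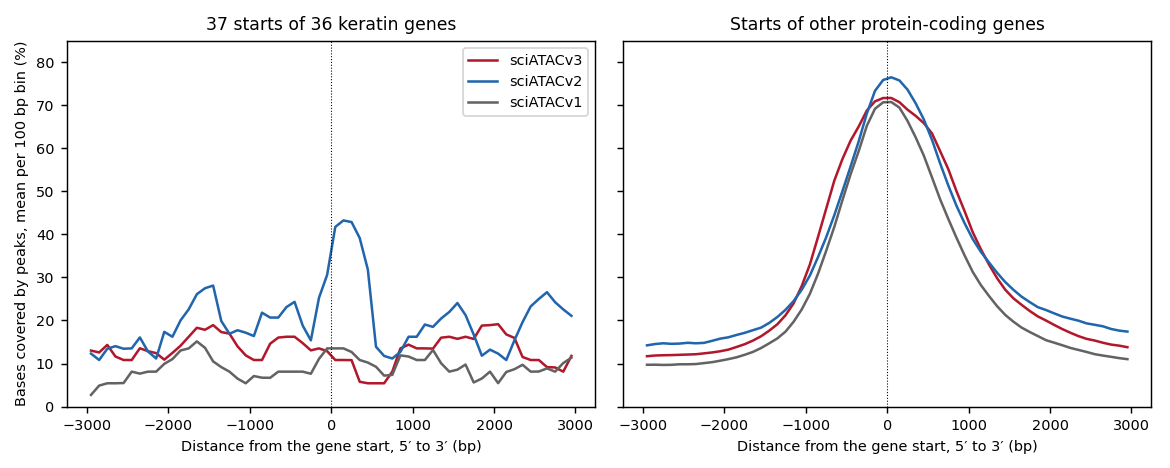
Mean percent of bases covered by peaks in 100 bp bins (y axis) by distance in bp from the gene start (x axis), for 37 starts of 36 keratin genes on the left and for starts of other protein-coding genes on the right; lines are v3, v2 and v1. Other genes peak at the start at 71.7% in v3, 76.5% in v2 and 70.8% in v1, while keratin starts show a peak in v2, up to 43.2%, and reach at most 19.1% in v3 and 15.1% in v1 anywhere in the range.

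Keratin promoters also differ from most in base composition, which the choice of genes did not use. The 37 keratin promoters, Krt13 having 2, held a median of 5 CpG dinucleotides (range 2 to 21) and 48.7% G and C, against a median of 13 CpG and 56.7% G and C in all 21045 promoters of the table. TATAAA occurred on either strand in 19 of the 37, or 51.4%, against 12.7% of all promoters. On the strand of the gene it occurred in 17, or 45.9%, against 8.29%. GGGCGG, the core of the GC box, occurred on either strand in 2, or 5.41%, against 46.7% of all. TGANTCA, the AP-1 motif, occurred on either strand in 2, or 5.41%, against 7.04%. A promoter was counted for each motif on its own, whether or not another motif overlapped it. A match only says that these letters stand in the window.

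Because promoters with few CpG dinucleotides had fewer start peaks throughout, the keratin starts were also read within classes of CpG number. Among promoters with 3 to 5 CpG, 3 of 13 keratin promoters had a peak in v3, 5 in v2 and 4 in v1, which is 23.1%, 38.5% and 30.8%, against 46.1%, 57.8% and 45.1% of 2955 others. With 6 to 10 CpG, 1 of 14 had one in v3, 7 in v2 and 1 in v1, against 71.9%, 82.3% and 70.8% of 2723 others. With 0 to 2 CpG it was 1 of 7 in v3, 3 in v2 and 2 in v1, against 18.9%, 27.5% and 19% of 3701 others. Over 10 CpG there were 3 keratin promoters, of which 1 had a peak in v3, 3 in v2 and 0 in v1, against 97.7%, 98.7% and 97.4% of 11629 others. In the 6 to 10 class the exact 95% intervals of the keratin share, 0.181 to 33.9% in v3, 23.0 to 77.0% in v2 and 0.181 to 33.9% in v1, lay below the share of the others in each list. In the 3 to 5 class the keratin shares were lower, but their intervals, 5.04 to 53.8% in v3, 13.9 to 68.4% in v2 and 9.09 to 61.4% in v1, included the share of the others. The poorest class, with 7 keratin promoters, had a higher keratin share in v2 and v1. The printed promoters do not order by this measure: Krt32 held 2 CpG, Krt77 3, Krt9 4 and Krt12 8, against 17 in Krt18, 6 in Krt8 and 6 in Krt5.

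The position of keratin peaks was then compared across the lists. Merged over the 3 lists, peaks in the keratin windows formed 259 regions. All 3 lists had a peak in 93 of them (35.9%), 2 lists in 45 (17.4%) and 1 list in 121 (46.7%). Of those in 1 list, 19 were in v3, 91 in v2 and 11 in v1. The same split was not made over all protein-coding windows, so these shares describe keratin windows only. Whether they are particular to keratin genes, or follow from v2 being the longest list, was not tested. Regions of all 3 lists had a median merged width of 1367 bp, against 761 bp for 2 lists and 500 bp for 1. Merging joins the peaks of a region, so a region with more lists is wider partly by construction. On chromosome 15, 56 of 135 regions (41.5%) were in all 3 lists, and on chromosome 11, 37 of 124 (29.8%). Of the 93 shared regions, 60 overlapped a keratin gene span. Shared keratin regions included chr15:101361509-101367442 within the Krt80 window, the widest of those named here at 5934 bp. It joins several peaks: the widest single peak in keratin windows was 2559 bp in v3, 3059 bp in v2 and 2580 bp in v1. Others were chr15:101844230-101847376 at Krt1, chr15:101535591-101538888 between Krt84 and Krt82, and chr15:101995804-101998862 where Krt78 meets Krt8. The Krt9 and Krt77 start peaks lay in the shared regions chr11:100191379-100194134 and chr15:101868515-101870456.

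The share of keratin peaks of one list that met a peak of another list was lower than the share in all protein-coding windows in 5 of the 6 directions. Of the v3 peaks in keratin windows, 84.2% (77.5 to 89.5%) overlapped a v2 peak, against 88.0% in all protein-coding windows, and 67.1% (59.2 to 74.3%) overlapped a v1 peak, against 77.5%. Of the v2 keratin peaks, 57.8% (51.4 to 64.0%) overlapped a v3 peak, against 66.9%, and 48.6% (42.3 to 55%) overlapped a v1 peak, against 70.0%. Of the v1 keratin peaks, 81.3% (73.8 to 87.4%) overlapped a v3 peak, against 77.3%, and 86.3% (79.5 to 91.6%) overlapped a v2 peak, against 93.3%. The intervals excluded the value of all windows for v3 peaks met by v1, for v2 peaks met by either list, and for v1 peaks met by v2. Over the 53 genes, Spearman's rho of covered percent was 0.809 between v3 and v2, 0.760 between v3 and v1 and 0.699 between v2 and v1. These describe genes that share windows, window lengths and libraries. Over all genes the values were 0.870, 0.894 and 0.896.

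Long stretches of both clusters had no peak in any list. The type I cluster, chr11:99232761-100269951 or 1037191 bp from Krt222 to Krt42, encloses 23 genes with a Krtap symbol and 15 genes with other symbols. Krtap genes encode keratin-associated proteins, which crosslink hair keratins. Within this cluster the longest empty stretch, chr11:99860493-99977806 with 117314 bp, held 4 Krtap genes and 0 keratin genes, besides Gm11559, Gm11565 and Gm11567. The type II cluster, chr15:101348315-102032026 or 683712 bp from Krt80 to Krt18, encloses 1 other gene. Within it the longest empty stretch, chr15:101584980-101628222 with 43243 bp, also held 0 keratin genes. The next in length was chr15:101653322-101695279 with 41958 bp over Krt6b and Krt6a, followed by chr15:101889149-101924222 with 35074 bp over parts of Krt76 and Krt4. The longest empty stretch within each cluster thus held no keratin gene.

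Between lists, keratin windows held a larger share of all peaks in v3 and v2 than in v1. The 158 keratin peaks of v3 were 0.0309% of its peaks (0.0262 to 0.0361%), the 251 of v2 were 0.0295% (0.0260 to 0.0334%), and the 139 of v1 were 0.0223% (0.0188 to 0.0264%). The v3 over v1 share ratio was 1.38 (exact conditional binomial 95% interval 1.09 to 1.75), and v2 over v1 was 1.32 (1.07 to 1.64). The v3 over v2 ratio was 1.05 (0.852 to 1.28), an interval that includes 1 and also values well away from it. In the neighbouring genes' windows the same ratios were 0.999 (0.897 to 1.11) for v3 over v1, 0.859 (0.778 to 0.948) for v2 over v1 and 1.16 (1.05 to 1.29) for v3 over v2. Over all protein-coding windows they were 1.05, 0.943 and 1.11. Keratin intervals for v3 over v1 and v2 over v1 lay above the all-gene values, and the v2 over v1 interval lay above that of the neighbours.

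Both clusters had ratios above 1 against v1. Type I windows had 62 peaks in v3, 118 in v2 and 60 in v1, with ratios of 1.26 (0.867 to 1.82) for v3 over v1 and 1.44 (1.05 to 1.998) for v2 over v1. Type II windows had 96 peaks in v3, 133 in v2 and 79 in v1, with ratios of 1.48 (1.09 to 2.02) and 1.23 (0.926 to 1.65). For v3 over v2 the clusters lay on opposite sides of 1, with 0.873 (0.631 to 1.20) for type I and 1.20 (0.913 to 1.57) for type II, and both intervals include 1. The intervals of the clusters overlap, so a difference between them was not detectable at these counts. Peak width moved with the version: 36.1% of the keratin peaks were at the minimum of 500 bp in v3 (28.6 to 44.1%), 54.2% in v2 (47.8 to 60.5%) and 64.7% in v1 (56.2 to 72.7%). In the whole lists these shares were 42.2% in v3, 53.1% in v2 and 59.8% in v1. The part of depth, peak calling and width in the ratios was not tested.

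**Figure D4:**
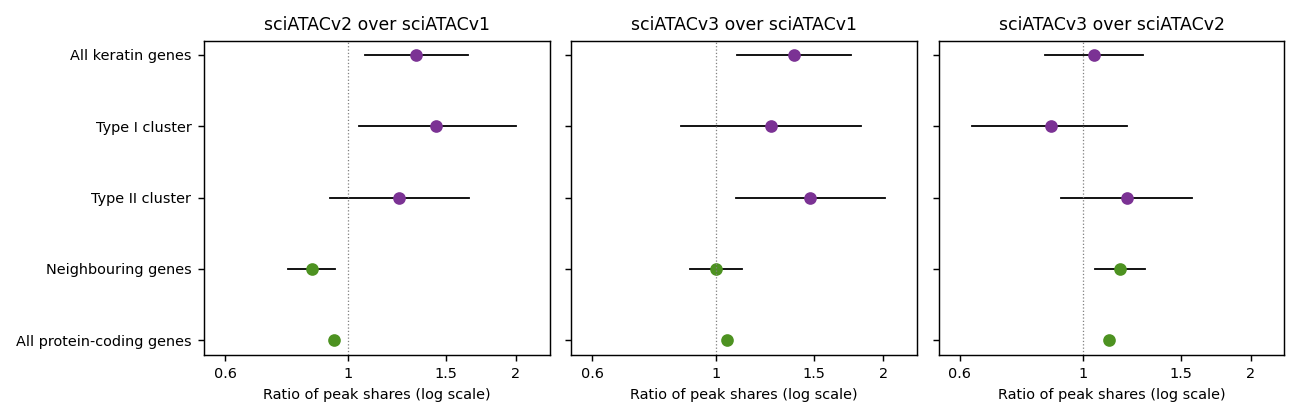
Ratio of the shares of all peaks that fall in keratin windows, in each cluster, in the windows of neighbouring genes and in all protein-coding windows (rows), for v2 over v1, v3 over v1 and v3 over v2 (x axis, log scale); points are ratios of single libraries and bars are exact 95% intervals for counting error. The keratin ratios against v1 are 1.32 for v2 and 1.38 for v3, while those of neighbouring genes are 0.859 and 0.999.

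Single keratin genes rest on few peaks, and their ratios are given as descriptions. Among the 31 keratin genes whose peaks in the lists add up to 10 or more, 7 had a share over 2-fold higher in v3 than in v1 (4.39% of 16774 genes under the same filter did) and 1 had one over 2-fold lower (2.18%). For v2 over v1 there were 5 higher (3.12%) and 0 lower (0.841%). For v3 over v2 there were 0 higher (2.37%) and 2 lower (2.93%). The median log2 ratio of the 31 was 0.54 for v3 over v1, 0.66 for v2 over v1 and 0.05 for v3 over v2, against 0.09, -0.05 and 0.14 over all genes. Ratios above 1 were found for 26 of the 31 against v1 in v3, and for 22 in v2. The share of all genes above 1 was not taken, so these counts are not read as low or high. The counts past 2-fold and the log2 ratios use a pseudocount of 0.5 peaks, and windows that overlap can count the same peaks. Before the filter, keratin windows held a median of 3 peaks in v3, 5 in v2 and 2 in v1, against 7, 11 and 8 over all genes. Ratios of few peaks pass 2-fold more easily, so the keratin counts and the shares of all genes are not on 1 scale.

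Krt33a, Krt14, Krt42 and Krt75 were over 2-fold higher than in v1 in both v3 and v2. With only peaks wider than 500 bp, the keratin genes past 2-fold higher numbered 1 for v3 over v1 and 1 for v2 over v1, so most of these calls were lost. Whether a lost gene fell under the minimum of 10 peaks or under 2-fold was not separated. The share of all genes under this setting was not taken. Krt33a, a hair cortex keratin, had 5 peaks in v3, 4 in v2 and 1 in v1. Krt75, a keratin of the companion layer of the hair follicle, had 5, 5 and 1, and its v3 over v1 share ratio, taken like the other single-gene ratios with intervals without a pseudocount, was 6.08 (0.680 to 288). Krt42, a nail keratin in the mouse, had 2 peaks in v3, 11 in v2 and 0 in v1. It passed the minimum of 10 peaks only through v2, where it was high. The minimum sums all lists, so other genes can also pass it through a list where they are high. The folds of Krt42 against v1 rest on the pseudocount and are not printed. Against v1, Krt25 was also past 2-fold in v2, and Krt71, Krt86 and Krt90 in v3. Krt24 went the other way, with 1 peak in v3, 5 in v2 and 5 in v1 and a v3 over v1 ratio of 0.243 (0.00514 to 2.17). Krt10 had the lowest v2 over v1 ratio of the 31, 0.585 (0.201 to 1.65). Krt8 and Krt33a shared the highest v3 over v2 ratio, 2.08 without the pseudocount (0.447 to 10.5) and 0.95 as a log2 ratio with it, which is short of 2-fold, and the genes past 2-fold lower in v3 than in v2 were Krt24 and Krt42. Every single-gene interval given here includes 1.

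Genes of related proteins place the keratin values. The 13 genes of other intermediate filaments, among them neurofilaments, vimentin and lamins, had median coverage of 34.5% in v3, 44.7% in v2 and 30.1% in v1. All 13 had a peak near a span end, at most 1 kb away, in each list, beside 80.6%, 84.8% and 81.0% of all protein-coding genes. The median keratin gene, at 15.9%, 18.4% and 8.21%, lay under the least covered of them, Nefl, the neurofilament light chain, at 21.7% in v3, 22.6% in v2 and 16.6% in v1. Vim, encoding vimentin, had 24.9%, 25.8% and 25.6%, and Des and Nefm, encoding desmin and the medium neurofilament, had 43.6% and 49.9% in v3, 48.0% and 50.9% in v2, and 36.6% and 50.5% in v1. The 17 genes of desmosomes and cytolinkers, to which keratin filaments attach, had medians of 18.0% in v3, 36.5% in v2 and 20.1% in v1. By their mean they ran from Dsg1a, a desmosomal cadherin, at 3.39%, 12.9% and 5.88%, and Dsp, encoding desmoplakin, at 5.15%, 7.46% and 10.9%, to Dst, encoding dystonin, at 46.9%, 56.4% and 47.2%.

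Genes of epidermis were read beside the keratins, then genes of choroid plexus and ependyma, which a brain sample could hold. The 11 cornified envelope and epidermal genes had median coverage of 12.0% in v3, 30.2% in v2 and 10.8% in v1. Each had at least 1 peak in its window in each list, as did most protein-coding genes. Of all genes, only 12.8% had none in v3, 9.81% in v2 and 11.2% in v1. Cdh1, encoding E-cadherin, had 5.89% in v3, 9.90% in v2 and 8.42% in v1, and Epcam, an epithelial adhesion molecule, had 12.0%, 14.6% and 5.96%. At the other end, Klf4 had 32.9%, 27.3% and 23.3%, and Tgm3, encoding a transglutaminase of hair and epidermis, had 36.1%, 46.5% and 30.6%. The 7 genes of choroid plexus and ependyma, the epithelial cells of the ventricles, had medians of 27.8% in v3, 34.4% in v2 and 18.3% in v1. All 7 had a peak near a span end in each list, as did most protein-coding genes. By their mean they ran from Folr1, a folate receptor, at 27.8%, 26.6% and 4.45%, to Otx2, a transcription factor, at 43.2%, 43.7% and 49.4%. The part of such cells in the keratin peaks was not tested.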

How the data were processed

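The authors deposited 1 list of peak coordinates per library (unit: other, chromosome, start and end with no score, height or count). The genome build was mm10 and the tools included ArchR and MACS2, per the submitters' processing notes. The aligner, tool versions and calling threshold were not given in the sources used here. Depth is unknown.

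Gene spans and promoters came from RefSeq tables of GRCm38.p6. A window is the gene span plus 5 kb on each side, and a peak belongs to it by 1 bp of overlap. The start window, 250 bases before to 50 after the start, was used for the 36 of 53 keratin genes with an entry; the planned fallback to both span ends within 1 kb was applied to all 53 as a separate measure. Covered percents are bases under peaks; share ratios have exact conditional binomial intervals and shares exact Clopper-Pearson 95% intervals, for counting error only. Log2 ratios use a pseudocount of 0.5 peaks scaled to library totals, for genes with at least 10 peaks summed. No test was run. Named are genes with a start peak or no peak, the 2 most covered per role, the 3 most extreme ratios per pair and direction, and the 2 highest and lowest of each comparison list; other keratin genes named for a role or an empty window were chosen after their values were seen. The genes and lists were chosen with earlier results of these data known. Scripts used Python 3.11.15, numpy 2.4.6, pandas 2.3.3, scipy 1.17.1 and matplotlib 3.10.9 and were tested on simulated data. Alternatives were the span alone, 20 kb flanks, peaks wider than 500 bp, peak midpoints, other genes' spans left out, covered bases, both gene ends, an equal pseudocount and a minimum of 5 peaks. Coordinates are 1-based.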

Additional observations from a re-analysis of the deposited data

How the results depend on the processing

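All values are for keratin genes in the order v3, v2 and v1. Counts of genes under the alternatives have no share of all genes beside them, so they show only how the keratin counts move. The share ratios kept their direction under every alternative run and moved by less than their intervals, from 1.29 to 1.74 for v3 over v1, 1.24 to 1.47 for v2 over v1 and 1.02 to 1.18 for v3 over v2. Leaving out other genes' spans and placing peaks by midpoint moved no value past its interval or 1.5 times. With the gene span alone, the share of all peaks was 0.0193%, 0.0190% and 0.0149%, the median covered percent 15.6%, 26.7% and 8.02%, and 13, 6 and 16 genes had no peak. With 20 kb flanks the share was 0.0475%, 0.0422% and 0.0340%, the median covered percent 16.5%, 18.5% and 8.35%, and 0, 0 and 3 genes had no peak. With only peaks wider than 500 bp, the median covered percent was 12.0%, 11% and 0, 12, 8 and 27 genes had no peak, and v2 had a start peak at 8 genes. A peak within 1 kb of either end was found at 26, 30 and 17 of the 36 genes with a listed start. For genes past 2-fold, a minimum of 5 peaks gave 8 higher and 2 lower for v2 over v1, 2 lower for v3 over v1, and 4 higher and 4 lower for v3 over v2. Peaks wider than 500 bp gave 1 higher for v2 over v1, 1 higher and 0 lower for v3 over v1, and 0 lower for v3 over v2. An equal pseudocount gave 2 higher for v3 over v2. These follow from the wider or narrower windows, the peaks left out and the genes admitted; the cause beyond that was not tested. No paired analysis was possible because each version has 1 library. Depth, the number of nuclei and the calling threshold are unknown, so start peaks listed in v2 alone and the length of its list cannot be told apart.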

Other observations

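The 56 keratin-associated protein genes with a Krtap symbol, which encode matrix proteins of the hair shaft, had even less of their windows covered than the keratin genes. Their median was 0 in v3, 7.67% in v2 and 4.75% in v1, with median peak numbers of 0, 1.5 and 1. No peak lay in the window of 29 of them in v3 (12.8% of all protein-coding genes), 14 in v2 (9.81%) and 18 in v1 (11.2%). The Krtap windows were shorter, with a median of 10833 bp against 17070 bp for keratin genes and 27329 bp for all genes. A shorter window is more easily empty, so these counts are not on 1 scale with those of other genes. The lists differed by location. On chromosome 16, 18 of 24 keratin-associated protein genes had no peak in v3, 3 in v2 and 4 in v1. On chromosome 11, within the type I keratin cluster, 8 of 23 had no peak in v3, 9 in v2 and 11 in v1.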
